A study of Homo sapiens with 6 samples.

Results

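The HOX genes are the homeobox genes of the HOXA, HOXB, HOXC and HOXD clusters, and they were taken here as every array probe named HOXA, HOXB, HOXC or HOXD with a number and nothing after it. The rule found 48 probes for 39 genes among 58201 gene probes. Of these, 11 genes (16 probes) lay in the HOXA cluster, 10 (12 probes) in HOXB, 9 (9 probes) in HOXC and 9 (11 probes) in HOXD. Each HOX probe was printed as a single spot per array.

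HOX proteins are transcription factors that bind DNA through the homeodomain, usually together with PBX and MEIS partners. Genes at the same place in the different clusters are paralogs and share a number. Low numbers are read out early and towards the head of the embryo, and high numbers late and towards the tail, in the order in which the genes stand along the chromosome. Polycomb proteins keep silent HOX genes closed through methylation of histone H3, and trithorax proteins hold active ones open. In the prostate the posterior genes are the best known, above all HOXB13, which marks the prostate epithelium.

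The RNA came from 22RV1, an established human prostate cancer line that makes SPINK1, and was hybridised to 6 Agilent arrays with 2 dyes each. One group of cells carried the lentiviral vector pLemiR-338-5p, which makes the microRNA miR-338-5p, another carried pLemiR-421 for miR-421, and the control carried pLemiR-RFP, which makes a red fluorescent protein in place of a microRNA. All were kept in RPMI medium with serum, penicillin and streptomycin, and puromycin, which selects cells that carry a vector. The control was always labelled with Cy3 and the microRNA line with Cy5, and dyes were not swapped, so a dye bias of a probe and a difference from control cannot be told apart in the ratio of a single line. There were 3 arrays for miR-338-5p (replicates 1, 2 and 3) and 3 for miR-421 (a sample named as a pool, and replicates 1 and 2). The labels explain neither what was pooled nor the letter C in the other names, so the p-values measure the spread between these samples, which may be technical. The labels also leave it unsaid whether a single control culture supplied all Cy3 samples. In such bulk RNA, fewer cells of a type and less RNA per cell cannot be told apart.

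The 2 microRNAs that set the lines apart are shown as RefSeq gives them (GRCh38.p14), hsa-miR-338-5p at chr17:81125923-81125944 and hsa-miR-421 at chrX:74218392-74218414, both on the minus strand. Capitals mark the seed, bases 2 to 8, through which a microRNA mainly pairs with its targets. The seeds of both differ.
hsa-miR-338-5p: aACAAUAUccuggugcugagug
hsa-miR-421: aUCAACAGacauuaauugggcgc

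The 4 tested HOX probes below hold codons of the homeobox, the stretch that is most alike between HOX genes. They are shown because their specificity bears on the HOXC and HOXA values. Not all tested probes were searched for the homeobox, so others may also lie over it. Capitals mark the codons that open the conserved part of the recognition helix, which reads the DNA. The probes are on hg19 at chr7:27181547-27181606 (HOXA5, minus strand), chr12:54383100-54383159 (HOXC10, plus strand), chr12:54350226-54350285 (HOXC12, plus strand) and chr17:46620897-46620956 (HOXB2, minus strand).
HOXA5 A_23_P93772: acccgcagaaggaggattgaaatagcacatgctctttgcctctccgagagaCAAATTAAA
HOXC10 A_24_P218805: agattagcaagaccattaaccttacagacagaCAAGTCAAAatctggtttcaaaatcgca
HOXC12 A_23_P335981: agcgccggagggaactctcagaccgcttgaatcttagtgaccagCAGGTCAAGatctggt
HOXB2 A_33_P3271273: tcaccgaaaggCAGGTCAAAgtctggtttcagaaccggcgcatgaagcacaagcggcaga
Around the capitals the letters differ from gene to gene. The longest run of letters that the HOXA5 probe had in common with a probe of another HOX gene was 9 bases of 60, and it was 10 bases for HOXC10, 9 for HOXC12 and 10 for HOXB2. Only probes were compared, not the whole transcripts of the other HOX genes, so these runs cannot show how specific the probes are. Cross-hybridisation to other HOX genes or to genes outside the clusters was not tested.

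In the control cells, the HOXA, HOXB and HOXC clusters were largely measurable and the HOXD cluster was not. A probe counted as measured when the scanning software called it well above background. The call gives no level, and it also passed dim probes on all 6 arrays. In Cy3 log2 intensity, scaled across arrays, HOXA2 stood at 6.02 to 6.15, HOXB2 at 6.05 to 6.26, HOXB7 at 6.11 to 6.20 and HOXA6 at 6.19 to 6.29. HOXD13, called on no array, stood at 5.78 to 5.86. The leukocyte marker CD3E also passed in Cy3 on all 6 arrays. In Cy3, 28 of the 48 HOX probes were well above background on all 6 arrays, against 39.1% of all gene probes, and 13 HOX probes were well above background in neither dye on any array. By gene, Cy3 was well above background on all 6 arrays for 9 of 11 HOXA genes, 8 of 10 HOXB genes, 7 of 9 HOXC genes and 0 of 9 HOXD genes. In the HOXD cluster, HOXD9 reached it in Cy3 on 3 arrays and HOXD11 on 1. Among the HOXA, HOXB and HOXC genes that were not measured on all arrays, HOXA11, HOXB3, HOXC5 and HOXC11 stood singly between neighbours that were, and HOXB1 is the first gene of its cluster.

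**Figure D1:**
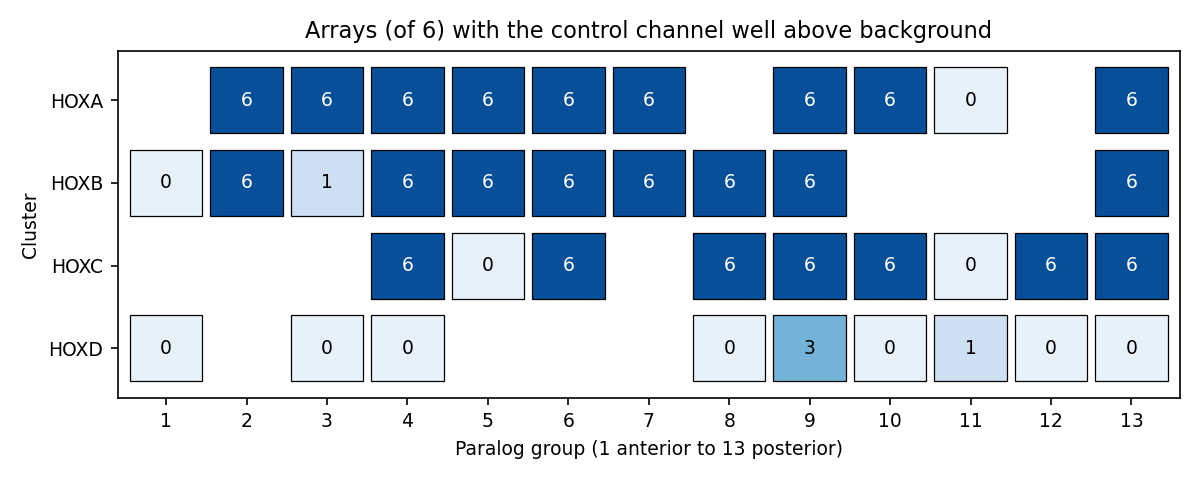
Detection of the HOX genes in control cells. Rows are the clusters, columns the paralog groups, and each number is on how many of the 6 arrays the gene's best probe was well above background in Cy3; empty places have no probed gene or are not shown. The HOXD row is at 0 apart from HOXD9 (3 arrays) and HOXD11 (1 array).

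HOXD13, a posterior gene of the urogenital tract, stood at 5.78 to 5.86 in Cy3 (log2 intensity after scaling both channels across arrays) and was well above background on 0 of 6 arrays in either dye. Its ratios, which were not tested, were 0.00, 0.00 and 0.01 with miR-338-5p and -0.01 (pool), 0.00 and -0.09 with miR-421. These probes give only a bound, and an RNA below it was not detectable. The luminal prostate markers besides HOXB13 were well above background in Cy3 on all 6 arrays for 9 of 9 genes, and 0 of 3 basal epithelial markers passed the filter for testing.

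A probe entered the tests when Cy3 or Cy5 stood well above background on 3 or more of the 6 arrays. This left 29 HOX probes for 25 genes, namely 9 HOXA genes (13 probes), 8 HOXB, 7 HOXC and HOXD9. The 14 other genes included HOXA11, HOXB1, HOXB3, HOXC5, HOXC11 and the HOXD genes besides HOXD9. Values are log2 ratios of the microRNA line over control unless an intensity is named, and a gene with several tested probes is represented by its brightest one where genes are counted.

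**Figure D2:**
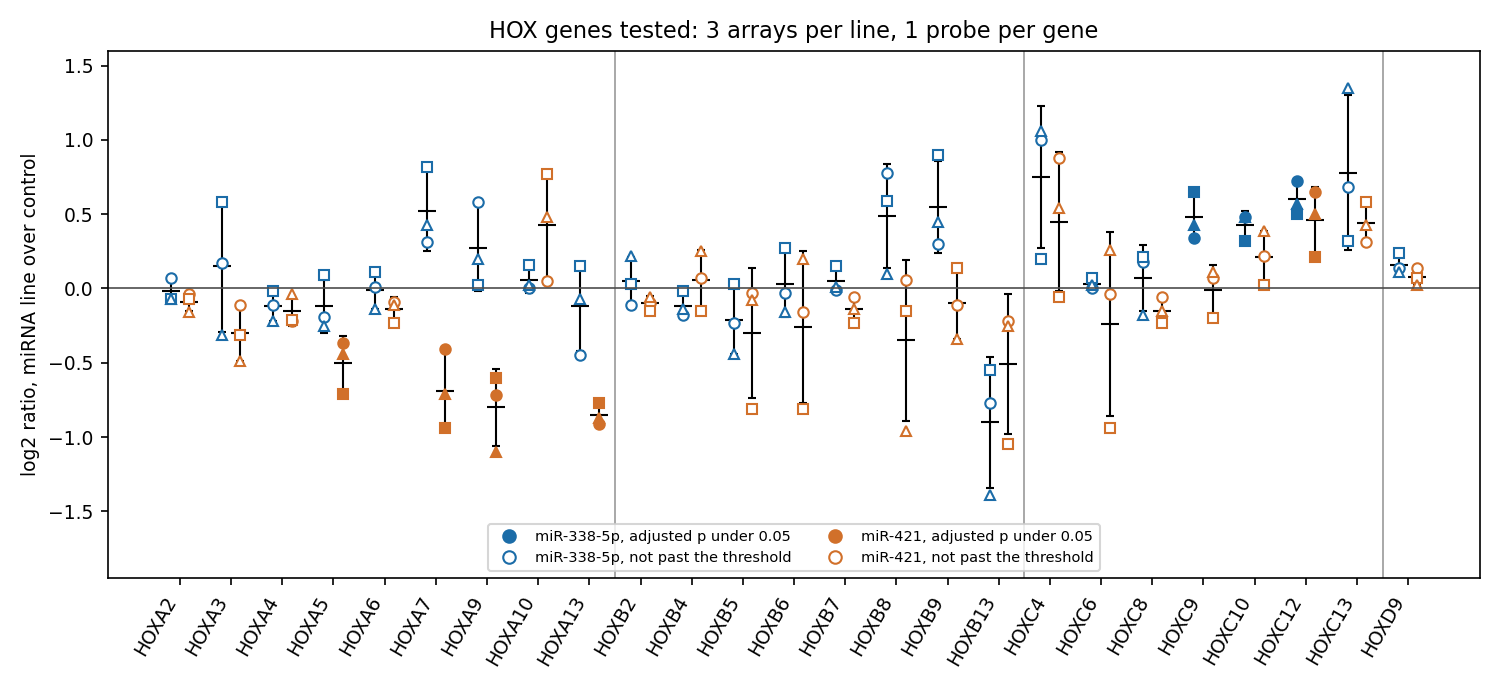
Log2 ratio of the microRNA line over control for the 25 tested HOX genes, in cluster order. Each marker is an array (circle, square and triangle are replicates 1, 2 and 3 for miR-338-5p, and pool, 1 and 2 for miR-421), bars are the mean and SD of 3 arrays, and filled markers have a limma adjusted p under 0.05. Filled markers for miR-421 lie below 0 in the HOXA cluster, and filled markers for miR-338-5p lie above 0 in the HOXC cluster.

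The miR-421 line was compared with control first. HOXA5, HOXA7, HOXA9, HOXA10 and HOXA13 fell on at least 1 probe, to between 55.5% and 70.7% of the control signal. HOXC12 was the only HOX gene that rose past the threshold. In all, 7 of 29 HOX probes passed limma's test, where 21.6% of all 27497 probes tested passed. The share called in either direction was thus close to that of all probes. By direction, 6 of 29 were lower against 12.5% of all probes, and 1 was higher against 9.19%. All 6 that fell were HOXA probes, and they were 6 of the 13 HOXA probes tested.

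HOXA13 (NM_000522, probe at chr7:27236674-27236733 on hg19), the last gene of the cluster, shapes limb ends and the urogenital tract. It had log2 ratios of -0.91 (pool), -0.77 and -0.87 (replicates 1 and 2) with miR-421. The mean was -0.85 ± 0.07 (n = 3, SD; adjusted p 0.0084 by limma), or 55.5% of control. With miR-338-5p the ratios were -0.45, 0.15 and -0.07, averaging -0.12 ± 0.30 (n = 3, SD; adjusted p 0.548 by limma). The miR-421 arrays lay below every miR-338-5p array. The Cy3 log2 intensity was 6.82 to 6.92 on all 6 arrays, and Cy5 on the miR-421 arrays was at most 6.05 and well above background on 2 of 3, so the signal that remained lay close to background. The size of the fall differed with the processing, at -2.77 with plain background subtraction and -3.55 in the software's own ratio.

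HOXA7 (NM_006896, probe at chr7:27194431-27194490), a gene of the middle of the cluster, had ratios of opposite sign in the lines. Its ratios were -0.41 (pool), -0.94 and -0.71 (replicates 1 and 2) with miR-421, averaging -0.69 ± 0.27 (n = 3, SD; adjusted p 0.0212 by limma). With miR-338-5p they were 0.31, 0.82 and 0.43, averaging 0.52 ± 0.27 (n = 3, SD), short of the threshold (adjusted p 0.0671 by limma). All miR-421 arrays were below 0 and all miR-338-5p arrays above it. The Cy3 log2 intensity lay between 8.34 and 8.59 on all 6 arrays, whereas Cy5 was 8.72 to 9.25 on the miR-338-5p arrays and 7.65 to 7.93 on the miR-421 arrays, so the separation was in the channel of the microRNA lines.

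HOXA5, which patterns the lung and neck and acts as a growth restraint in several epithelia, had ratios of -0.37 (pool), -0.71 and -0.44 with miR-421. The mean was -0.50 ± 0.18 (n = 3, SD; adjusted p 0.0196 by limma). With miR-338-5p the ratios were -0.19, 0.09 and -0.25, averaging -0.12 ± 0.18 (n = 3, SD; adjusted p 0.502 by limma). The miR-421 arrays again lay below every miR-338-5p array, although by a smaller gap than for HOXA7.

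HOXA9, a posterior gene known for its part in blood progenitors and leukaemia, was read by 4 probes that did not move alike. The probe A_22_P00023586 had ratios of -0.72 (pool), -0.60 and -1.10 with miR-421, averaging -0.80 ± 0.26 (n = 3, SD; adjusted p 0.0148 by limma). The probe A_23_P500998 had -0.60 (pool), -0.57 and -1.10, averaging -0.76 ± 0.30 (n = 3, SD; adjusted p 0.021 by limma). Both lay above 0 on every miR-338-5p array, at 0.58, 0.02 and 0.20 for the first and 0.87, 0.27 and 0.49 for the second. Their miR-338-5p means, 0.27 and 0.54, did not pass (limma adjusted p 0.268 and 0.0761).

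The other pair of HOXA9 probes gave no fall that passed. A_22_P00007805 had ratios of -0.11 (pool), -0.18 and -0.13 with miR-421, averaging -0.14 ± 0.04 (n = 3, SD; adjusted p 0.313 by limma), and its Cy5 was well above background on 2 of these 3 arrays. A_33_P3416231 had 0.06 (pool), 0.56 and 0.21, averaging 0.28 ± 0.26 (n = 3, SD; adjusted p 0.107 by limma), the opposite sign. By the coordinates in the files (hg19, chromosome 7, minus strand), the pair that fell starts at 27202258 and 27202588, and A_33_P3416231 and A_22_P00007805 start at 27203145 and 27203345, so the pair that fell lies nearer the 3′ side of the gene. All 4 probes are also assigned in the files to a noncoding transcript beside HOXA9 itself (NR_037940, a HOXA10-HOXA9 readthrough), so the signals of transcripts that overlap here cannot be told apart by these probes.

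HOXA10, a posterior gene needed in the uterus and the male tract, showed the same split between probes. A_24_P77904 had ratios of -0.72 (pool), -0.52 and -0.86 with miR-421, averaging -0.70 ± 0.17 (n = 3, SD; adjusted p 0.00864 by limma), and -0.23, -0.34 and 0.00 with miR-338-5p, averaging -0.19 ± 0.18 (n = 3, SD; adjusted p 0.257 by limma). The miR-421 value was -1.69 with plain background subtraction. A_33_P3288649 had 0.05 (pool), 0.77 and 0.48 with miR-421, averaging 0.43 ± 0.36 (n = 3, SD), short of the threshold (adjusted p 0.063 by limma). With miR-338-5p it had 0.00, 0.16 and 0.02.

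The second HOXA10 probe is shown because its 60 bases span 1235 bases of the genome (chr7:27211789-27213023, hg19, minus strand), so it crosses a splice junction, while A_24_P77904 (chr7:27211235-27211294) does not.
HOXA10 A_33_P3288649: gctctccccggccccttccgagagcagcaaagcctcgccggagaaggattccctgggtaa
Its GC content was 65.0%, against 36.7% for A_24_P77904 and a median of 43.3% over all gene probes. Its control channel also differed between the arrays of the 2 lines. Cy3 log2 intensity was 12.55, 13.01 and 12.88 on the miR-338-5p arrays and 14.31 (pool), 13.85 and 13.45 on the miR-421 arrays, without overlap, although the labels give control RNA for all 6. The HOXA9 probe that stayed above 0, A_33_P3416231, also had higher Cy3 on the miR-421 arrays, at 7.58 to 7.68 against 7.23 to 7.27. What part this has in the ratios of these probes was not tested.

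**Figure D3:**
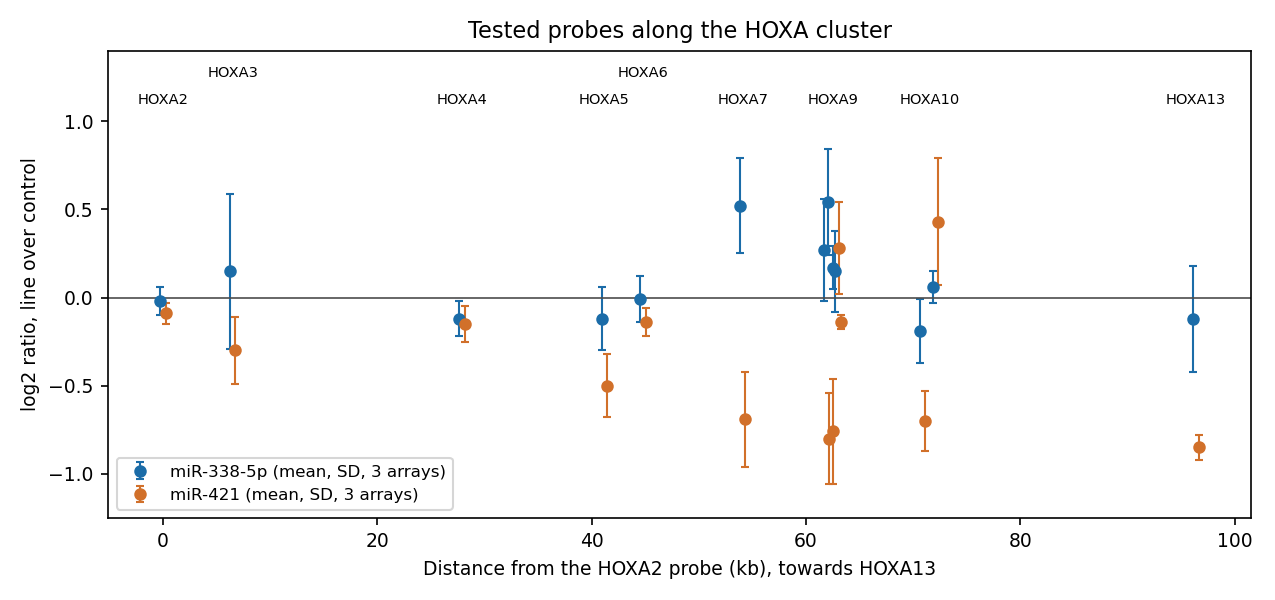
Mean log2 ratio (SD, 3 arrays) of the 13 tested HOXA probes by distance in kb from the HOXA2 probe. For miR-421 the low values lie from HOXA5 to HOXA13, and HOXA9 and HOXA10 each also have a probe above 0.

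Along the HOXA cluster, the other genes had smaller means with miR-421. HOXA2, HOXA3, HOXA4 and HOXA6 had means of -0.09, -0.30, -0.15 and -0.14, and none passed. The median over the brightest probes of the 9 tested HOXA genes was -0.30, with 8 of 9 below 0, and over all probes tested it was 0.00. By array, the HOXA median with miR-421 was -0.22 (pool), -0.31 and -0.44, and 0.01, 0.11 and -0.07 with miR-338-5p. Within the cluster the miR-421 median was -0.20 for the anterior genes (paralogs 1 to 3), -0.32 for the central genes (4 to 8) and -0.80 for the posterior genes (9 to 13), where 3 genes were tested and HOXA10 stood at 0.43.

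The HOXA falls rested on the arrays as follows. Without miR-421 replicate 2, 0 HOX probes passed limma's test with miR-421 (9 of 29 at an unadjusted p under 0.05), and without replicate 1, which had the lowest share of spots above background in Cy5 (41.9%), 5 passed, 4 of them lower. The fall of HOXA13 passed in 17 of 19 alternatives, that of HOXA7 in 16 and that of HOXA5 in 15. Probe GC content also moved with the ratio: across tested probes the correlation with the log2 ratio was 0.135 (pool), 0.336 and 0.261 on the miR-421 arrays and -0.04, 0.11 and 0.148 on the miR-338-5p arrays (probes are not independent replicates). The HOXA probes that fell had GC contents of 30% (HOXA7), 35.0% and 36.7% (HOXA9), 36.7% (HOXA10), 35.0% (HOXA13) and 45% (HOXA5). The median of all tested probes of 30% to 37% GC was -0.06, -0.20 and -0.10 on the miR-421 arrays (pool, replicates 1 and 2). With the GC trend removed from each array, a step added after the data were seen, the 6 HOXA probes still passed, at -0.49 (HOXA5), -0.56 (HOXA7), -0.67 and -0.64 (HOXA9), -0.59 (HOXA10) and -0.71 (HOXA13), with limma adjusted p from 0.0181 to 0.0337.

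**Figure D4:**
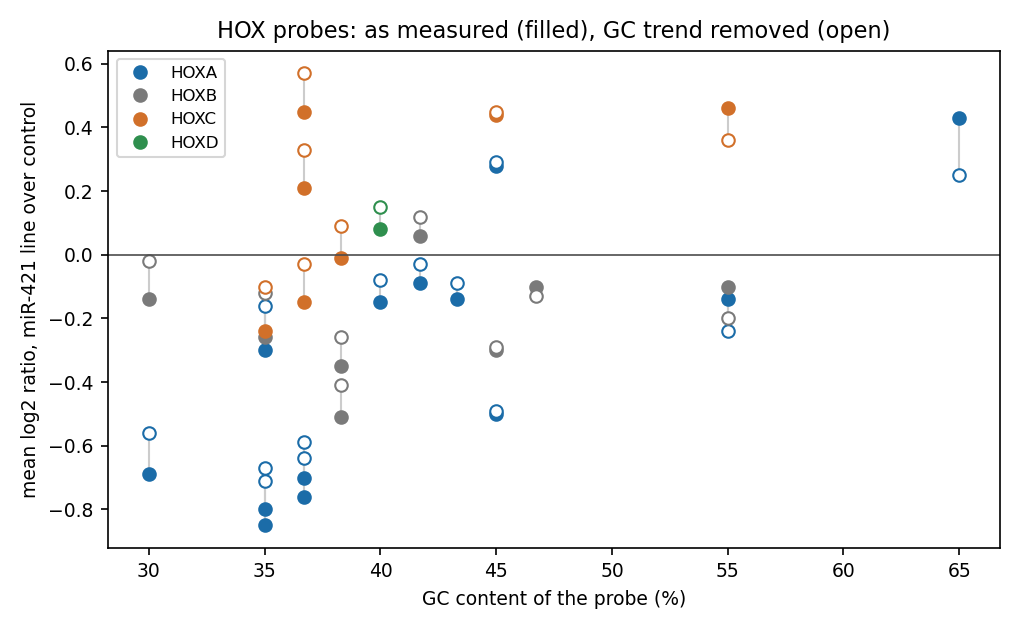
Mean log2 ratio of the miR-421 line over control against the GC content of the probe, for the 29 tested HOX probes. Filled points are as measured and open points after removal of the GC trend of each array, joined by a line. The HOXA probes that fell stay below -0.4 after the removal, and the HOXA10 junction probe at 65.0% GC falls from 0.43 to 0.25.

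The promoters of HOXA7, HOXA9 and HOXA13, genes with a probe that fell, are shown as the 250 bases before the RefSeq start (GRCh38.p14, minus strand, chr7:27156676-27156925, chr7:27165538-27165787 and chr7:27200092-27200341). Capitals mark TAAT on either strand (ATTA when read on this one), the core that most homeodomains bind.
HOXA7 promoter: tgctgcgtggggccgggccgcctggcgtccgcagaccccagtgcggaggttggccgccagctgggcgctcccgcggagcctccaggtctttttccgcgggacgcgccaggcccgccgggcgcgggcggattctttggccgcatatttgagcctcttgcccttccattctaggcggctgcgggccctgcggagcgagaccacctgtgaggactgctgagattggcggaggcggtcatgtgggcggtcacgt
HOXA9 promoter: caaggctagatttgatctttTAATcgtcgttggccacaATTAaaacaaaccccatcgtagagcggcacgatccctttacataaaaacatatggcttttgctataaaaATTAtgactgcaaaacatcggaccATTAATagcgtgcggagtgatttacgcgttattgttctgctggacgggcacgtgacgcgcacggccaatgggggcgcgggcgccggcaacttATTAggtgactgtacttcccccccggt
HOXA13 promoter: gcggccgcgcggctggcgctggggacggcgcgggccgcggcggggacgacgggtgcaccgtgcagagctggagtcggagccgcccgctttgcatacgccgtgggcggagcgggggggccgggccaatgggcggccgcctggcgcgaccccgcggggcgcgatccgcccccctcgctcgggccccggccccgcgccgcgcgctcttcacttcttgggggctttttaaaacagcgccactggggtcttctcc
The HOXA9 window holds 6 matches, some of which overlap, and the other windows hold 0. Of 34943 distinct promoter windows of the same length, 47.5% hold at least 1 TAAT, against 19 of the 26 HOX windows in the table (73.1%). These stand for 20 genes, with 7 windows for HOXA3 and 1 that HOXC4 and HOXC5 share, so they are not independent. The PBX-HOX type motif TGATNNAT was in 3 of the 26 and in 6.5% of all. The 3 windows shown hold more CG pairs than the median promoter, with 28 (HOXA7), 20 (HOXA9) and 40 (HOXA13) against 11. Of all promoters, 15.8%, 32.4% and 2.2% hold at least as many as these, in the same order.

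The miR-338-5p line was compared with control in the same way. Here HOXC genes rose and no HOX gene fell past the threshold. HOXC9, HOXC10 and HOXC12, posterior genes of the HOXC cluster, rose to 139%, 135% and 152% of control. In all, 3 of 29 HOX probes passed limma's test, where 8.95% of 27507 probes tested passed. The share called in either direction was thus close to that of all probes. By direction it was not, with 3 of 29 higher against 3.77% of all probes, and 0 lower against 5.19%.

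HOXC12, next to the posterior end of its cluster, was higher on every array of both lines. Its ratios were 0.72, 0.50 and 0.57 with miR-338-5p, averaging 0.60 ± 0.11 (n = 3, SD; adjusted p 0.0221 by limma). With miR-421 they were 0.65 (pool), 0.21 and 0.50, averaging 0.46 ± 0.22 (n = 3, SD; adjusted p 0.0242 by limma). It was the only HOX gene that passed in both lines without further correction. The Cy3 log2 intensity was 6.65 to 6.88 and Cy5 7.09 to 7.37. With the GC trend removed the miR-421 value was 0.36 and did not pass (limma adjusted p 0.06), while HOXC10 then passed in both lines, at 0.47 and 0.33 (limma adjusted p 0.0187 and 0.0288).

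HOXC10, which helps to set hindlimb and motor neuron identity, had ratios of 0.48, 0.32 and 0.48 with miR-338-5p, averaging 0.43 ± 0.09 (n = 3, SD; adjusted p 0.0347 by limma). With miR-421 they were 0.22 (pool), 0.02 and 0.39, averaging 0.21 ± 0.18 (n = 3, SD; adjusted p 0.117 by limma). All 6 arrays were at or above 0, with the miR-421 mean lower and the values overlapping. The miR-421 value passed in 3 of 19 alternatives. The Cy3 log2 intensity of HOXC10 was 6.11 to 6.24, so the control signal was dim. The size of the miR-338-5p rise differed with the processing and the arrays, from 0.34 to 1.21.

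HOXC9 (NM_006897, probe at chr12:54396612-54396671), a posterior gene at the thoracic level, had ratios of 0.34, 0.65 and 0.43 with miR-338-5p, averaging 0.48 ± 0.16 (n = 3, SD; adjusted p 0.032 by limma). With miR-421 they were 0.07 (pool), -0.20 and 0.11, averaging -0.01 ± 0.17 (n = 3, SD; adjusted p 0.964 by limma). The miR-338-5p arrays lay above all miR-421 arrays.

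The other HOXC genes had means above 0 that did not pass in miR-338-5p. HOXC13, which is known for hair and nail, had 0.68, 0.32 and 1.35, averaging 0.78 ± 0.52 (n = 3, SD; adjusted p 0.0548 by limma), and HOXC4 had 1.00, 0.20 and 1.06, averaging 0.75 ± 0.48 (n = 3, SD; adjusted p 0.0969 by limma). HOXC6 and HOXC8 were at 0.03 and 0.07. With the GC trend removed, HOXC13 passed at 0.80 (limma adjusted p 0.0463) and HOXC4, at 0.80, did not (limma adjusted p 0.0631). All 7 tested HOXC genes had a mean above 0 with miR-338-5p, with a median of 0.48, against 0.00 for all probes tested. By array, the median over these 7 genes was 0.48, 0.32 and 0.48 with miR-338-5p and 0.22 (pool), -0.06 and 0.39 with miR-421. With miR-421, 4 of these genes had a mean above 0 and 3 below. HOXC13 had 0.31 (pool), 0.58 and 0.43, averaging 0.44 ± 0.14 (n = 3, SD; adjusted p 0.143 by limma). HOXC4 had 0.88 (pool), -0.06 and 0.54, averaging 0.45 ± 0.47 (n = 3, SD; adjusted p 0.204 by limma). HOXC4, HOXC5 and HOXC6 can share a first exon, so these genes are not independent measures.

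The HOXC count was not stable when an array was left out. Without miR-338-5p replicate 1, 2 or 3, or without miR-421 replicate 2, 0 HOX probes passed limma's test with miR-338-5p, with 7 to 13 of 29 at an unadjusted p under 0.05. Without the miR-421 pool 1 passed. Leaving out a miR-421 array does not change the miR-338-5p means, only the spread shared by the lines and the adjusted p. Over 19 alternatives in the processing or the arrays, the miR-338-5p value passed in 6 for HOXC9, in 9 for HOXC10 and in 11 for HOXC12, and its sign held in all 19 for each. The size ranged from 0.28 to 0.58 for HOXC9, from 0.34 to 1.21 for HOXC10 and from 0.45 to 1.05 for HOXC12.

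No HOXB gene passed in either line, and the tested HOXD gene, HOXD9, had means of 0.16 and 0.08 that did not pass. The median over 8 genes was 0.04 with miR-338-5p and -0.20 with miR-421, and 7 of 8 were below 0 with miR-421. HOXB13 (NM_006361, probe at chr17:46802144-46802203), the prostate HOX gene, had ratios of -0.77, -0.55 and -1.39 with miR-338-5p, averaging -0.90 ± 0.44 (n = 3, SD; adjusted p 0.0579 by limma). With miR-421 it had -0.22 (pool), -1.05 and -0.25, averaging -0.51 ± 0.47 (n = 3, SD; adjusted p 0.151 by limma). All 6 arrays were below 0, at 53.6% and 70.2% of control on average, and neither mean passed. The miR-338-5p value passed in 2 of 19 alternatives, with no background correction and without miR-421 replicate 1. The Cy3 log2 intensity was 13.36 to 13.76.

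HOXB8 and HOXB9 differed between the lines by array, although neither passed against control. HOXB8 had 0.78, 0.59 and 0.10 with miR-338-5p and 0.06 (pool), -0.15 and -0.96 with miR-421. HOXB9 had 0.30, 0.90 and 0.45 with miR-338-5p and -0.11 (pool), 0.14 and -0.34 with miR-421. For both genes all miR-338-5p arrays lay above all miR-421 arrays. HOXB5, HOXB6 and HOXC6 shared a low value on miR-421 replicate 1, at -0.81, -0.81 and -0.94, while the pool and replicate 2 lay between -0.16 and 0.26.

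**Figure D5:**
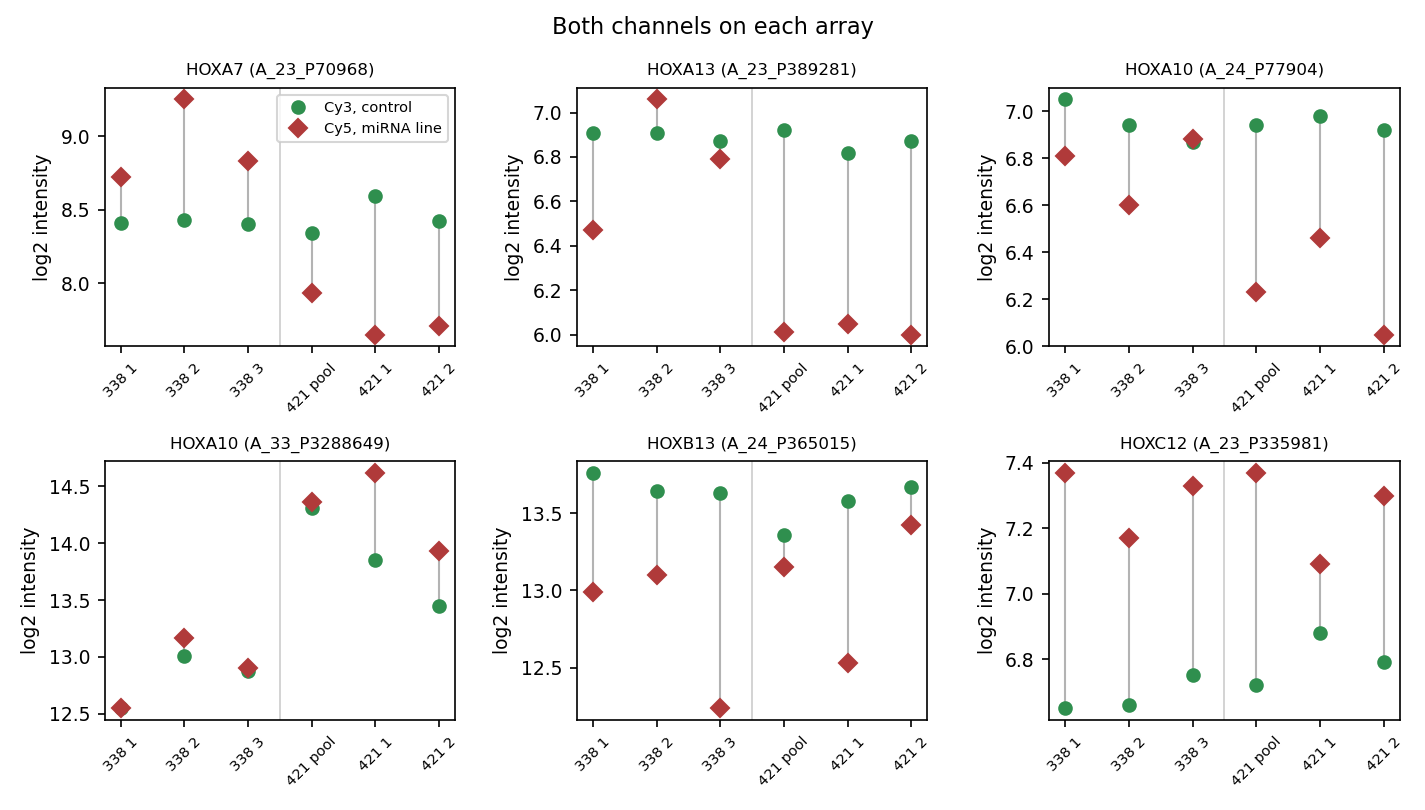
Log2 intensity of both channels on each array for 6 HOX probes (circles Cy3, control; diamonds Cy5, microRNA line); the vertical axes differ and do not start at 0. Cy3 of HOXA7 lies at 8.34 to 8.59 throughout while Cy5 parts the lines, and Cy3 of HOXA10 A_33_P3288649 is higher on the miR-421 arrays.

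The lines were then compared with each other, where a dye bias or control level that all arrays share drops out. The control channel was not the same throughout, since Cy3 stood well above background at 47.3% to 47.9% of gene spots on the miR-338-5p arrays and at 44.3% to 44.4% on the miR-421 arrays, without overlap. Its part in this comparison was not tested. No HOX probe passed (0 of 29; limma's test, 9 at an unadjusted p under 0.05), where 0.0473% of 27495 probes passed, 0.0109% higher and 0.0364% lower with miR-338-5p. The largest differences, miR-338-5p minus miR-421, were 1.30 and 1.07 for the HOXA9 probes A_23_P500998 and A_22_P00023586 (limma adjusted p 0.104 and 0.123) and 1.21 for HOXA7 (limma adjusted p 0.1). HOXB8 followed with 0.84, HOXA13 with 0.73 and HOXB9 with 0.65 (limma adjusted p 0.323, 0.166 and 0.247).

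The arrays of the lines did not overlap at 11 of 29 HOX probes, against 19.8% of all probes. At all 11 the miR-338-5p arrays lay above the miR-421 arrays, as in 10.1% of all probes, and at 0 below, as in 9.74%. The signs were opposite on all arrays of the lines at 3 HOX probes, against 3.54% of all probes, namely HOXA7 and the HOXA9 pair above. The 11 were HOXA5, HOXA7, 3 HOXA9 probes, HOXA10 A_24_P77904, HOXA13, HOXB7, HOXB8, HOXB9 and HOXC9. By gene, 22 of 25 had a difference above 0 with a median of 0.22, against 0.01 for all probes. The cluster medians were 0.39 for HOXA, 0.17 for HOXB and 0.27 for HOXC. With the GC trend removed, 11 probes again lay above and 0 below, and 21 of 25 genes were above 0 with a median of 0.21.

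By position over all clusters, the posterior genes had the widest range. With miR-338-5p the medians were 0.05 for 3 anterior, 0.03 for 12 central and 0.35 for 10 posterior genes, and with miR-421 they were -0.10, -0.20 and 0.04. The posterior genes ranged from -0.90 (HOXB13) to 0.78 (HOXC13) with miR-338-5p and from -0.85 (HOXA13) to 0.46 (HOXC12) with miR-421. With miR-421 the posterior HOXA genes ranged from -0.85 to 0.43 (HOXA10, brightest probe) and the posterior HOXC genes from -0.01 (HOXC9) to 0.46, so the clusters overlapped.

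Genes that work with the clusters were examined next. The TALE cofactors PBX and MEIS, which bind DNA together with HOX proteins, had 6 of 9 genes tested and 0 passed in either line. The polycomb list had 27 genes tested, of which 1 rose and 2 fell with miR-338-5p, and 1 rose and 9 fell with miR-421, where the median was -0.37. Of all probes tested, 3.77% were called higher and 5.19% lower with miR-338-5p, and 9.19% higher and 12.5% lower with miR-421. SUZ12, a core subunit of the complex that methylates histone H3, was at -0.71 and -1.18 (limma adjusted p 0.0373 and 0.00701). BMI1, a subunit of the other main polycomb complex, was at 0.46 with miR-338-5p and -0.67 with miR-421 (limma adjusted p 0.0396 and 0.00951), and its second probe was at 0.14 and -0.09 without passing. EZH2, the methylating enzyme, was at -0.23 and -0.57 and did not pass (limma adjusted p 0.604 and 0.137). Of 16 trithorax genes tested, 2 fell with miR-338-5p and 6 with miR-421, and none rose, to be read against the same shares.

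A list of antisense and other transcripts of the clusters, among which PRAC1 and PRAC2 carry mRNA accessions and count as protein-coding entries, had 14 genes tested. By the brightest probe, 0 passed with miR-338-5p, and 4 rose and 1 fell with miR-421, where 9.19% of all probes were called higher and 12.5% lower. HOXC-AS1 rose by 1.12 ± 0.17, PRAC1 by 0.72 ± 0.14, HOXB-AS3 by 0.70 ± 0.33 and PRAC2 by 0.68 ± 0.28 (SD, n = 3; limma adjusted p 0.00768 to 0.0287). The other PRAC2 probe (A_33_P3344233) was at 0.23 with miR-421, short of the threshold, and at 0.42 with miR-338-5p, past it (limma adjusted p 0.107 and 0.0371). PRAC1 and PRAC2 lie beside HOXB13, whose ratio was below 0 on all 6 arrays. HOXA11-AS fell by 0.55 ± 0.15 (n = 3, SD; adjusted p 0.0159 by limma), with ratios of -0.55 (pool), -0.40 and -0.71, and its second probe (A_22_P00005923) was at -0.12 and did not pass (limma adjusted p 0.227). HOXA11-AS lies between HOXA10 and HOXA13, both of which had a probe that fell.

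Of 27 protein-coding neighbours of the clusters, 1 rose and 1 fell with miR-338-5p and 2 rose and 3 fell with miR-421, with medians of -0.06 and -0.03. Over all probes 8.95% and 21.6% were called, so the neighbours called with miR-421 were close to the share of all probes. Next to the HOXB cluster, NFE2L1 rose in both lines, by 0.90 and 0.89, and SKAP1 rose with miR-421 by 1.80 ± 0.17 (n = 3, SD; adjusted p 0.00289 by limma). Of 4 other homeobox genes tested, MNX1 and EN2 rose with miR-421, by 1.12 and 0.49. MNX1 had ratios of 1.09 (pool), 1.57 and 0.69, and EN2 had 0.10 (pool), 0.75 and 0.63, so the EN2 rise was small in the pool. Markers of other cells were also measurable in part. Of 5 fibroblast, 3 endothelial and 4 leukocyte genes, 3, 2 and 4 were tested, with 0 called in each line. In Cy3, 2, 2 and 4 of them stood well above background on all 6 arrays.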

How the data were processed

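The deposited intensity values of each array were the mean spot brightness and the median local background in both dyes, made by the authors with Feature Extraction 11.5.1.1 and not normalized, per the file headers. The log10 ratio of red over green was computed by the same software, per the file headers, after its own background and dye correction. The whole-series table deposited by the authors held log2 ratios per gene name, whose normalization is not given in the sources used here. Its column medians ranged from -0.163 to 0.034, and its values correlated with the software's ratio at 0.968 to 0.980. The ratio and the table served as alternatives.

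Background was corrected by normexp (offset 50) and loess normalization ran within arrays, where control spots had weight 0. Outlier spots were left out (none was a HOX spot), and spots of a probe were averaged. Of 62976 spots, 60901 were for genes and made 58201 probes, of which 27509 were kept. Channel levels were scaled with Aquantile. R 4.3.3 and limma 3.58.1 were used. The 6 arrays entered 1 two-sided limma fit with a mean per group, and Benjamini-Hochberg adjustment ran over all probes at 0.05. The fit was tested on simulated data. All arrays came from 1 slide. Gene spots well above background ranged from 47.3% to 47.9% in Cy3 on the miR-338-5p arrays and from 44.3% to 44.4% on the miR-421 arrays, and from 41.9% to 48.3% in Cy5, and 0 were saturated. The number of arrays limits the precision.

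The HOX genes, the gene lists and the tests were chosen with earlier results of these data known. Values on every array were planned for HOX genes past the threshold and for HOXB13, HOXA13 and HOXD13. They were also planned for genes with a tested probe whose means in the lines had opposite signs, each at least 0.5 in size. The values of HOXB8, HOXB9, HOXC4, HOXC13, HOXB5, HOXB6 and HOXC6 by array were added after they were seen. The labels do not say whether the replicate numbers pair the samples. Deviations of same-numbered arrays from the group means correlated at -0.14 and -0.21. With so few arrays per group, such deviations are not independent, so these correlations cannot decide whether the samples were paired. Some items are not reported here.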

Additional observations from a re-analysis of the deposited data

Results flagged for a closer look

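In 3 HOX probes every array of the miR-338-5p line lay above 0 and every array of the miR-421 line below it, as in 3.54% of all probes. They were HOXA7, with a difference of 1.21 (limma adjusted p 0.1), and the HOXA9 probes A_23_P500998, with 1.30 (0.104), and A_22_P00023586, with 1.07 (0.123). The difference was tested and did not pass for any of the 3.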

How the results depend on the processing

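Over 19 alternatives, the 10 called values kept their sign in every alternative run, and 0 of the 10 passed in all. The count of 3 with miR-338-5p became 6 with no background correction, 1 with no filter on dim probes, and 0 with median centring, with a trended and robust variance, with the arrays of the group alone and with the replicate block. Leaving out an array gave 0 to 4. The count of 7 with miR-421 became 0 with the replicate block on the 4 arrays that share a number, 0 to 8 when an array was left out, 10 with the software's ratio (3 higher, 7 lower) and 5 with the mean of a gene's tested probes (25 genes). The block used fewer arrays. The count of the difference stayed at 0 in all alternatives run, which cannot show stability at this size.

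Uncalled values near 0 changed sign. HOXC9 with miR-421 (-0.01) became 0.05 with the background subtracted, 0 with no background correction, 0.1 with the software's ratio, 0.1 with the deposited table, -0.06 to 0.09 when an array was left out and 0.09 with the GC trend removed. HOXA10 A_33_P3288649 with miR-338-5p (0.06) became -0.02 with the software's ratio, and HOXA13 with miR-338-5p (-0.12) ranged from -0.26 to 0.04 when an array was left out, the latter without replicate 1 of that line. The cause was not tested. The size of the fall of HOXA13 with miR-421 reached -3.55 and that of HOXA10 A_24_P77904 reached -1.74 with the software's ratio, so the sizes are not exact. Scalings moved the median of all probes by at most 0.08.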
